A study of Caenorhabditis elegans with 12 samples.

Results

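The genes described here encode the nuclear pore and the nuclear transport machinery of Caenorhabditis elegans. They were taken as every gene of the deposited count table whose symbol is npp, imb, ima, xpo, ran, nxt or nxf followed by a number, which gave 43 of 20182 genes. RNA was sequenced from immunoprecipitations (IPs) of whole young adult worms, 12 libraries in all. The tested libraries were FLAG IPs from 3 transgenic strains, and their controls were MYC IPs from the same strains, with 2 libraries for each strain and antibody. The CEY1 strain carries rrrSi300, a FLAG-tagged cey-1 open reading frame under the cey-1 promoter with the cey-1 3' UTR. The CEY2 strain carries rrrSi233, built in the same way from the promoter, reading frame and 3' UTR of cey-2. The CEY4 strain carries rrrSi307, in which the tagged cey-4 reading frame and its own 3' UTR stand behind the promoter of dpy-30, a gene expressed in most tissues. All 3 insertions lie on chromosome I and end in an operon with a GFP-histone reporter and the tbb-2 3' UTR, beside an unc-119(+) marker, so control and FLAG libraries of a strain share the whole genotype. CEY-1, CEY-2 and CEY-4 are Y-box proteins, which bind RNA through a cold-shock domain. Promoter, 3' UTR and reading frame all differ between the 3 strains. In a difference between strains the promoter, the 3' UTR and the protein therefore cannot be told apart.

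The nuclear pore is a channel through the nuclear envelope built from copies of many different proteins, the nucleoporins, which the worm npp genes encode. A scaffold of Y-shaped complexes and inner rings anchors nucleoporins rich in phenylalanine-glycine (FG) repeats, which fill the channel and bind transport receptors. Importins carry cargo in and exportins carry it out. The small GTPase Ran sets the direction, because it is kept in its GTP form in the nucleus and in its GDP form in the cytoplasm, while bulk mRNA leaves with the NXF1-NXT1 receptor. In worms the early embryo divides on maternal stores, and the gonad loads oocytes with mRNAs for such general machinery.

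Total counts ran from 22915137 to 33529549 in the FLAG libraries and from 3353523 to 12802412 in the MYC libraries. The summed level of 10 germline and oocyte marker genes was 23715 to 24872 CPM (counts relative to library size, with TMM scaling factors) in the CEY1 FLAG libraries, 34499 to 36188 in CEY2 FLAG and 22000.0 to 22456 in CEY4 FLAG libraries, against 6276 to 6678, 4588 to 4668 and 6917 to 7073 CPM in the CEY1, CEY2 and CEY4 MYC libraries. For 7 sperm genes the sums were 115 to 117, 44.9 to 46.6 and 123 to 129.9 CPM in CEY1, CEY2 and CEY4 FLAG libraries, and 82.2 to 102, 36.2 to 40.1 and 79.4 to 79.8 CPM in their MYC libraries. These sums do not stand for each sperm gene. The median log2 fold change of FLAG over MYC across the 7 genes was −1.03 (CEY1), −0.66 (CEY2) and −0.40 (CEY4). Across the 10 germline and oocyte genes it was 1.21 (CEY1), 2.46 (CEY2) and 1.23 (CEY4). Across the 5 body wall muscle genes it was 1.35 (CEY1), −0.43 (CEY2) and 1.275 (CEY4). For 5 body wall muscle genes the sums were 12949 to 13019, 2796 to 2827 and 11657 to 11947 CPM in CEY1, CEY2 and CEY4 FLAG libraries, and 3656 to 3828, 3080.1 to 3176 and 3451 to 3509 CPM in their MYC libraries. Intestine, hypodermis, neuron and pharynx markers were also present in every group with no marker at 0 in both libraries of a group. The labels do not say whether replicates came from separate cultures, so p-values measure the spread between these libraries only.

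With TMM scaling, most pore and transport mRNAs were recovered more strongly with the FLAG than with the MYC antibody in all 3 strains. With total counts in place of TMM that held for CEY2 only, as the next paragraph gives. With CEY1, 36 of 43 were higher and 5 lower (npp-20, npp-2, ima-1, nxt-1 and npp-27), where 32.3% of all 15194 tested genes were called higher and 34.4% lower. With CEY2, 41 were higher and 0 lower, against 34.9% and 34.1% of all genes. At an unadjusted p under 0.05, 1 was lower with CEY2 by edgeR, and DESeq2 called 1. With CEY4, 36 were higher and 1 lower (ran-4), against 31.5% and 37% of all genes. Genes were called by edgeR's quasi-likelihood test at an adjusted p under 0.05 over all tested genes, and all 43 passed the filter on low counts. The 33 genes called higher in every strain make up 76.7% of the 43, against 20.9% of all tested genes. Adjusted p of the called genes ran from 1.64e-37 (npp-11) to 0.0358 (ran-3) with CEY1, from 7.56e-38 (npp-14) to 8.63e-09 (npp-25) with CEY2, and from 6.61e-37 (npp-14) to 0.0104 (ran-4) with CEY4, by edgeR. FLAG and MYC libraries came from the same strain, so these ratios describe recovery with 1 antibody relative to the other, not levels in the worm. Between strains, a lower level in a library can mean fewer cells of a type, less of the mRNA per cell or lower recovery in the IP. These cannot be told apart.

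The 43 genes had a median log2 fold change of 1.34 (CEY1), 2.08 (CEY2) and 1.23 (CEY4), where the median of all genes was −0.26, −0.41 and −0.35. The sign of a fold change depends on how libraries are scaled, and neither an input nor a spike-in is there to set the scale. When total counts replaced TMM, the all-gene median shifted by −1.49, −1.71 and −1.41 with CEY1, CEY2 and CEY4, and the median of the 43 genes then stood at −0.16, 0.35 and −0.19. Under it 17 of the 43 genes were called higher and 21 lower with CEY1, 26 and 9 with CEY2, and 16 and 23 with CEY4, where 10.8%, 13.2% and 9.25% of all genes were called higher and 71.4%, 71.7% and 79.7% lower. A change of scaling moves all genes of a comparison by nearly the same amount. The distance between the 43 genes and the median of all genes therefore could hardly move. It was 1.60, 2.48 and 1.58 with TMM and 1.59, 2.46 and 1.57 with total counts. For the same reason the number of the 43 genes above that median was the same under both scalings, 38 with CEY1, 42 with CEY2 and 42 with CEY4. By TMM, 25, 40 and 30 of them stood among the 25% of genes with the largest values. All log2 fold changes below are FLAG over MYC with TMM scaling unless stated otherwise, each with its standard error (SE).

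**Figure D1:**
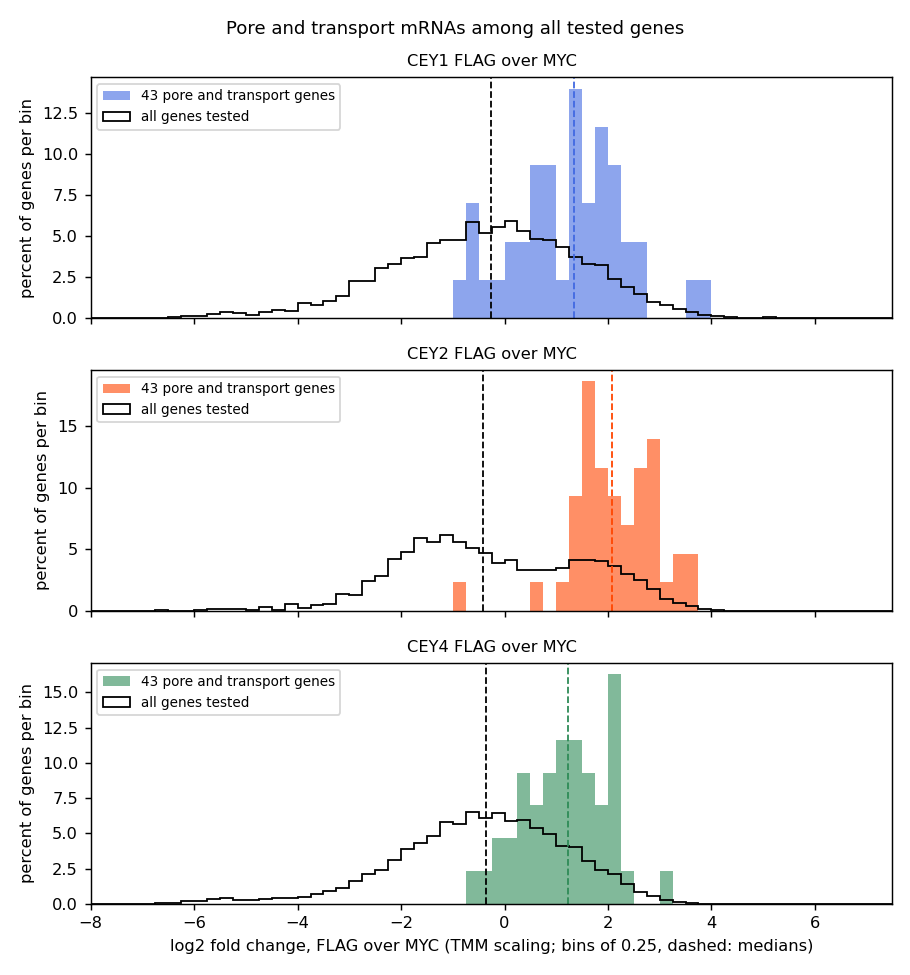
Percent of genes per bin of log2 fold change, FLAG over MYC, for the 43 pore and transport genes (filled) and all 15194 tested genes (black line), one panel per strain, with medians dashed. The median of the 43 genes lies to the right of that of all genes in each panel, by 1.60 with CEY1, 2.48 with CEY2 and 1.58 with CEY4.

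The scaffold mRNAs of the Y complex, the outer ring of the pore, spread widely. Of its 8 genes 6 were higher and 2 lower with CEY1, 8 were higher and 0 lower with CEY2 and 6 were higher and 0 lower with CEY4. Of all genes, 32.3% were higher and 34.4% lower with CEY1, 34.9% and 34.1% with CEY2, and 31.5% and 37% with CEY4. The counts by role below are to be read against the same shares. The largest values in every strain were those of npp-10, which encodes the joint precursor of the Y-complex protein Nup96 and the FG protein Nup98, at 1.97 ± 0.05 (CEY1), 2.95 ± 0.05 (CEY2) and 2.09 ± 0.05 (CEY4). The Nup107 gene npp-5 had 1.85 ± 0.07 (CEY1), 2.68 ± 0.07 (CEY2) and 1.81 ± 0.06 (CEY4), and the Nup160 gene npp-6 had 1.36 ± 0.06 (CEY1), 2.43 ± 0.06 (CEY2) and 1.77 ± 0.06 (CEY4). npp-20 and npp-2 were at the other end. npp-20 (WBGene00003806), the SEC13 gene, had 18.9 and 16.5 CPM in the CEY1 FLAG libraries, against 32.3 and 29.3 CPM in the CEY1 MYC libraries. Both CEY1 FLAG libraries therefore lay below both controls. In the CEY2 strain it had 53.5 and 51.8 CPM in the CEY2 FLAG libraries, against 22.8 and 17.5 CPM in the CEY2 MYC libraries, and in the CEY4 strain 36.8 and 37.4 CPM in the CEY4 FLAG libraries, against 33.8 and 36.2 CPM in the CEY4 MYC libraries. Its log2 fold changes were −0.78 ± 0.12 (CEY1), 1.38 ± 0.11 (CEY2) and 0.083 ± 0.10 (CEY4, adjusted p = 0.446). npp-2 (WBGene00003788), which encodes Nup85, had 114 and 114 CPM in the CEY1 FLAG libraries, against 193 and 168 CPM in the CEY1 MYC libraries. It had 217 and 231 CPM in the CEY2 FLAG libraries, against 69.0 and 74.2 CPM in the CEY2 MYC libraries, so that the FLAG libraries were the higher ones there. With CEY4 the levels were 203 and 201 CPM in the CEY4 FLAG libraries, against 162 and 156 CPM in the CEY4 MYC libraries, and the 3 log2 fold changes were −0.65 ± 0.07 (CEY1), 1.65 ± 0.07 (CEY2) and 0.34 ± 0.06 (CEY4).

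npp-18 (WBGene00003804), the SEH1 gene, was among the lowest with CEY4, with 72.0 and 71.1 CPM in the CEY4 FLAG libraries, against 78.3 and 71.4 CPM in the CEY4 MYC libraries, which overlap. Its fold changes were 0.42 ± 0.08 (CEY1), 1.60 ± 0.08 (CEY2) and −0.065 ± 0.07 (CEY4, adjusted p = 0.433). The CEY4 value was called lower with total-count scaling (−1.48) and with a filter of 1 CPM in every library (−0.67). The Nup133 gene npp-15 had 0.50 ± 0.06 (CEY1), 1.91 ± 0.06 (CEY2) and 0.78 ± 0.05 (CEY4), and the Nup43 gene npp-23 had 0.54 ± 0.08 (CEY1), 2.06 ± 0.10 (CEY2) and 0.55 ± 0.08 (CEY4). With total-count scaling these positive values turned negative: npp-6, npp-15, npp-18 and npp-23 with CEY1, npp-2, npp-18 and npp-20 with CEY2 and npp-2, npp-15, npp-20 and npp-23 with CEY4. With the stricter filter of 1 CPM in every library, npp-15, npp-18 and npp-23 with CEY1 and npp-2, npp-20 and npp-23 with CEY4 did so.

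In the inner ring, 3 of 4 mRNAs were higher in every strain, and npp-13 passed the test with CEY2, as higher. npp-3 (WBGene00003789), which encodes Nup205, had 2733 and 2605 CPM in the CEY1 FLAG libraries, against 496 and 393 CPM in the CEY1 MYC libraries. The CEY2 strain gave 2764 and 2743 CPM in the CEY2 FLAG libraries, against 302 and 302 CPM in the CEY2 MYC libraries. The CEY4 strain gave 2525 and 2514 CPM in the CEY4 FLAG libraries, against 476 and 484 CPM in the CEY4 MYC libraries. Its FLAG libraries thus all lay above all MYC libraries, with log2 fold changes of 2.59 ± 0.06 (CEY1), 3.19 ± 0.07 (CEY2) and 2.39 ± 0.06 (CEY4). The value with CEY4 was second of the 43 genes there. npp-8 (WBGene00003794), which encodes Nup155, had 1478 and 1457 CPM in the CEY2 FLAG libraries, against 133 and 119 CPM in the CEY2 MYC libraries, and its fold changes were 2.14 ± 0.06 (CEY1), 3.54 ± 0.06 (CEY2) and 2.15 ± 0.06 (CEY4). For npp-19, the Nup35 gene, they were 1.63 ± 0.09 (CEY1), 2.55 ± 0.10 (CEY2) and 1.46 ± 0.08 (CEY4). npp-13, the gene of Nup93, the core subunit of the inner ring, had −0.050 ± 0.07 (CEY1, adjusted p = 0.524), 1.39 ± 0.07 (CEY2) and −0.065 ± 0.06 (CEY4, adjusted p = 0.354). The npp-13 value with CEY1 was called lower in a fit on the CEY1 libraries alone (−0.17), with the 1 CPM filter (−0.65) and with total-count scaling (−1.54). With CEY4 it was called lower with that filter (−0.67) and that scaling (−1.48), and with CEY2 total-count scaling turned it negative. npp-19 was no longer called with CEY1 (0.14) and CEY4 (0.047) under total-count scaling.

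An FG protein gene of the channel had the largest enrichment with CEY1. npp-11 (WBGene00003797), which encodes the central FG protein Nup62, had 2023 and 1949.5 CPM in the CEY1 FLAG libraries, against 153 and 142 CPM in the CEY1 MYC libraries. In the CEY2 strain the levels were 795 and 775 CPM in the CEY2 FLAG libraries, against 103 and 95.8 CPM in the CEY2 MYC libraries. In the CEY4 strain they were 617 and 602 CPM in the CEY4 FLAG libraries, against 152 and 151 CPM in the CEY4 MYC libraries. The MYC libraries of the CEY1 and CEY4 strains were alike, while the CEY1 FLAG libraries stood above all others. The log2 fold changes were 3.76 ± 0.06 (CEY1), 2.98 ± 0.06 (CEY2) and 2.01 ± 0.06 (CEY4), and the first ranked 78 among the 15194 genes. The partners of Nup62 in the channel were less enriched: npp-4, the Nup58 gene, had 2.11 ± 0.07 (CEY1), 2.52 ± 0.08 (CEY2) and 1.19 ± 0.07 (CEY4). npp-1 (WBGene00003787), the Nup54 gene, had 127 and 125 CPM in the CEY2 FLAG libraries, against 61.1 and 48.7 CPM in the CEY2 MYC libraries, among the lowest enrichments with CEY2, and fold changes of 0.70 ± 0.07 (CEY1), 1.20 ± 0.08 (CEY2) and 0.82 ± 0.07 (CEY4). With total-count scaling npp-1 turned negative in all 3 strains and npp-4 with CEY4, and with the 1 CPM filter npp-1 was no longer called with CEY1 (0.10) and CEY2 (0.11).

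npp-14 (WBGene00003800), which encodes the cytoplasmic FG protein Nup214, was the most enriched of the 43 genes with CEY2 and CEY4 and ranked after npp-11 with CEY1. It had 3946 and 3884 CPM in the CEY1 FLAG libraries, against 349.8 and 322 CPM in the CEY1 MYC libraries. With CEY2 it had 2418 and 2389.9 CPM in the CEY2 FLAG libraries, against 195 and 205 CPM in the CEY2 MYC libraries. With CEY4 it had 2958 and 2963 CPM in the CEY4 FLAG libraries, against 325 and 329 CPM in the CEY4 MYC libraries. No FLAG library came near a MYC library, and the log2 fold changes of 3.54 ± 0.06 (CEY1), 3.59 ± 0.06 (CEY2) and 3.18 ± 0.05 (CEY4) ranked 125, 78 and 43 among all genes. npp-9 (WBGene00003795), which encodes the Ran-binding filament protein Nup358, had 3179 and 3167 CPM in the CEY4 FLAG libraries, against 695 and 673 CPM in the CEY4 MYC libraries, and fold changes of 2.03 ± 0.05 (CEY1), 2.70 ± 0.05 (CEY2) and 2.21 ± 0.05 (CEY4). For npp-24 (WBGene00022672), the gene of Nup88, the 3 values were close, at 1.34 ± 0.08 (CEY1), 1.38 ± 0.09 (CEY2) and 1.43 ± 0.07 (CEY4), although its FLAG levels differed: 163 and 170.0 CPM in CEY1, 104 and 117 in CEY2 and 184 and 190.3 in CEY4 FLAG libraries, against 63.1 and 68.2, 45.0 and 39.5 and 73.8 and 64.6 CPM in their MYC libraries. With total-count scaling npp-24 turned negative with CEY1 and CEY2 and was no longer called with CEY4.

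On the nuclear face, npp-7, which encodes the basket protein Nup153, had 2.27 ± 0.06 (CEY1), 2.97 ± 0.06 (CEY2) and 1.56 ± 0.06 (CEY4), and npp-21, which encodes the basket filament protein TPR, had 1.76 ± 0.05 (CEY1), 2.67 ± 0.05 (CEY2) and 2.06 ± 0.05 (CEY4). npp-16, the Nup50 gene, had lower values of 0.56 ± 0.08 (CEY1), 1.92 ± 0.08 (CEY2) and 1.08 ± 0.07 (CEY4), and those with CEY1 and CEY4 turned negative with total-count scaling. Among the membrane proteins of the pore, npp-12 (WBGene00003798), which encodes gp210, had 1204 and 1245 CPM in the CEY2 FLAG libraries, against 122 and 120.2 CPM in the CEY2 MYC libraries. Its log2 fold changes were 1.33 ± 0.05 (CEY1), 3.34 ± 0.06 (CEY2) and 2.17 ± 0.05 (CEY4). npp-22 (WBGene00007118), the NDC1 gene, had 402 and 394 CPM in the CEY1 FLAG libraries, against 109.8 and 102 CPM in the CEY1 MYC libraries. In the CEY2 strain it had 143 and 149 CPM in the CEY2 FLAG libraries, against 52.5 and 47.8 CPM in the CEY2 MYC libraries, and in the CEY4 strain 246 and 261 CPM in the CEY4 FLAG libraries, against 112 and 104 CPM in the CEY4 MYC libraries. Here CEY1 gave the largest of the 3 values, 1.92 ± 0.07 (CEY1), 1.54 ± 0.08 (CEY2) and 1.23 ± 0.06 (CEY4). npp-25 (WBGene00012555), whose human counterpart is the membrane protein TMEM33, was also most enriched with CEY1, with 38.4 and 30.8 CPM in the CEY1 FLAG libraries, against 5.17 and 5.60 CPM in the CEY1 MYC libraries. It had 11.4 and 11.5 CPM in the CEY2 FLAG libraries, against 3.16 and 4.48 CPM in the CEY2 MYC libraries and 8.14 and 7.49 CPM in the CEY4 FLAG libraries, against 6.85 and 6.98 CPM in the CEY4 MYC libraries, and counts of 24 to 601 per library. Its fold changes were 2.68 ± 0.17 (CEY1), 1.59 ± 0.21 (CEY2) and 0.18 ± 0.16 (CEY4, adjusted p = 0.327). With total-count scaling the values that turned negative were npp-12 with CEY1, npp-22 and npp-25 with CEY2 and npp-22 and npp-25 with CEY4.

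npp-26 (WBGene00021198) was close to the limit of detection, with 4 to 26 counts per library. It had 1.34 and 1.49 CPM in the CEY1 FLAG libraries, against 0.559 and 0.569 CPM in the CEY1 MYC libraries. It had 1.08 and 1.03 CPM in the CEY2 FLAG libraries, against 2.63 and 1.26 CPM in the CEY2 MYC libraries, where 1 control library stood well above the other. The fold changes were 1.31 ± 0.54 (CEY1), −0.89 ± 0.44 (CEY2, adjusted p = 0.0683) and 0.46 ± 0.40 (CEY4, adjusted p = 0.314). Leaving out any 1 of the CEY1 libraries ended the CEY1 call (values from 1.24 to 1.39), and without CEY2 MYC replicate 2 the CEY2 value was called lower (−1.30). npp-27 had fold changes of −0.47 ± 0.11 (CEY1), 1.68 ± 0.11 (CEY2) and 0.69 ± 0.09 (CEY4), of which those with CEY2 and CEY4 turned negative with total-count scaling, and that with CEY4 was not called with the 1 CPM filter (0.090).

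**Figure D2:**
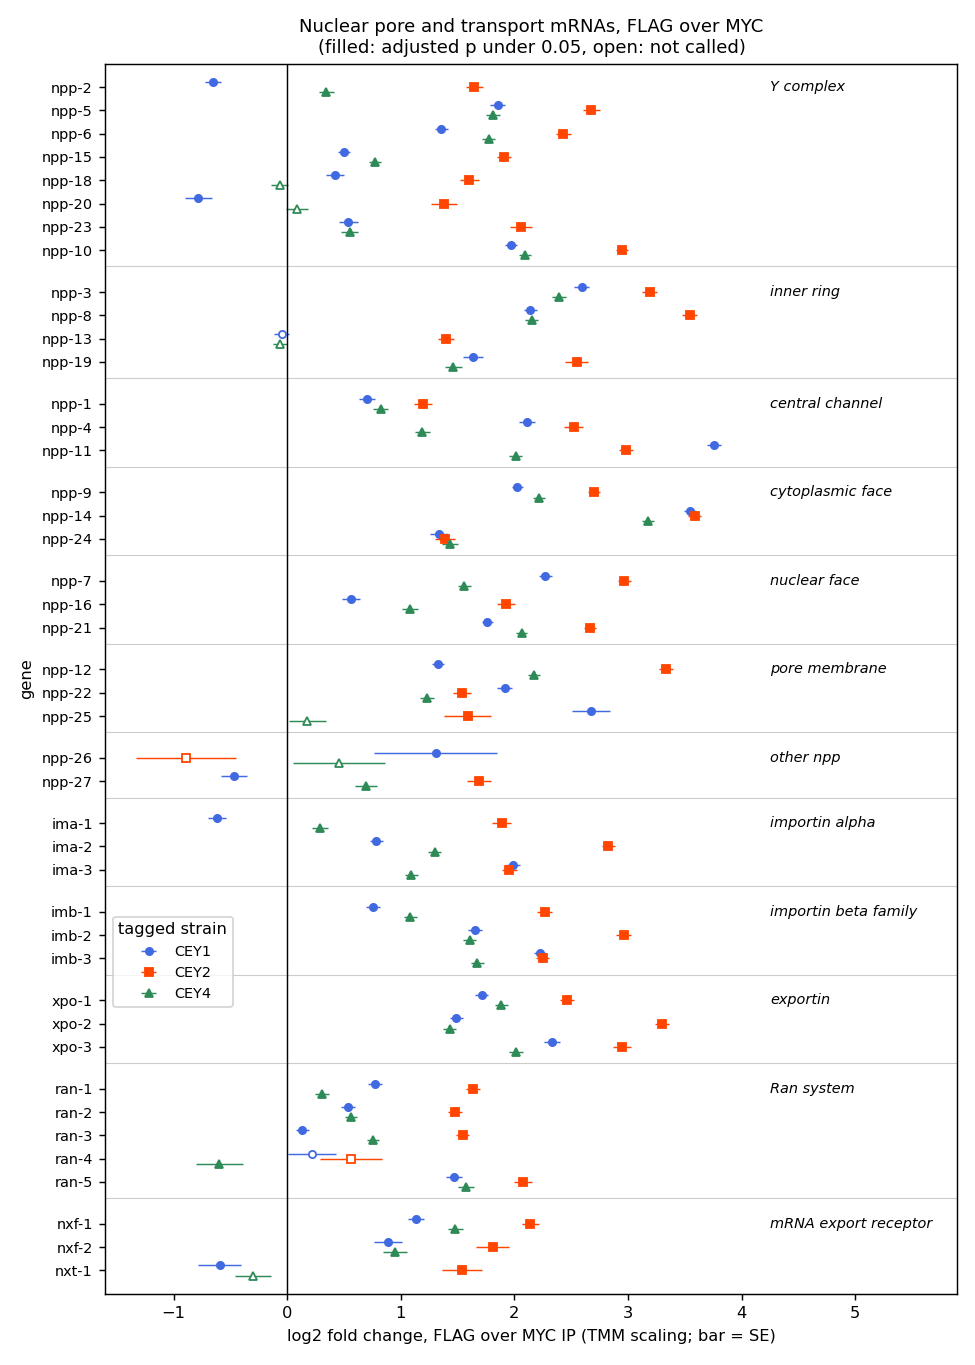
Log2 fold change of FLAG over MYC (x axis, TMM scaling, bars are SE) for each of the 43 genes (rows, grouped by role) in the CEY1, CEY2 and CEY4 strains, filled where called. CEY2 gave the largest value for 37 genes, and npp-11 with CEY1 the largest value in the plot, 3.76.

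The 3 importin alpha genes, whose proteins link cargo with a nuclear localization signal to importin beta, split by strain. In worms ima-1 and ima-2 are known as germline genes and ima-3 as expressed in germline and soma. ima-1 (WBGene00002072) had 78.3 and 72.8 CPM in the CEY1 FLAG libraries, against 108 and 123 CPM in the CEY1 MYC libraries. It had 158 and 173 CPM in the CEY2 FLAG libraries, against 47.8 and 41.6 CPM in the CEY2 MYC libraries. It had 140.1 and 138 CPM in the CEY4 FLAG libraries, against 117 and 111 CPM in the CEY4 MYC libraries. The CEY1 FLAG libraries thus lay below their controls and those of the other strains above theirs, with log2 fold changes of −0.62 ± 0.08 (CEY1), 1.89 ± 0.08 (CEY2) and 0.29 ± 0.07 (CEY4). ima-2 (WBGene00002073) had 593 and 590.0 CPM in the CEY1 FLAG libraries, against 352 and 336 CPM in the CEY1 MYC libraries. In the CEY2 strain its levels were 1213 and 1273 CPM in the CEY2 FLAG libraries, against 185 and 165 CPM in the CEY2 MYC libraries. In the CEY4 strain they were 832 and 856 CPM in the CEY4 FLAG libraries, against 339 and 347 CPM in the CEY4 MYC libraries. Every FLAG library was above every MYC library, and the fold changes were 0.78 ± 0.06 (CEY1), 2.83 ± 0.06 (CEY2) and 1.30 ± 0.05 (CEY4). ima-3 (WBGene00002074) had 488 and 477 CPM in the CEY1 FLAG libraries, against 128 and 117 CPM in the CEY1 MYC libraries. For CEY2 the levels were 295 and 296 CPM in the CEY2 FLAG libraries, against 77.8 and 74.5 CPM in the CEY2 MYC libraries. For CEY4 they were 279 and 273 CPM in the CEY4 FLAG libraries, against 129 and 130.1 CPM in the CEY4 MYC libraries. Its FLAG levels were highest with CEY1, the strain in which ima-1 and ima-2 were lowest, and its fold changes were 1.99 ± 0.06 (CEY1), 1.96 ± 0.07 (CEY2) and 1.09 ± 0.06 (CEY4). With total-count scaling ima-2 turned negative with CEY1 and CEY4, and ima-1 and ima-3 with CEY4, and the ima-1 value with CEY2 was no longer called (0.16).

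All importin beta family and exportin mRNAs were called higher in all 3 strains. imb-1, the importin beta that works with importin alpha, had the lowest values of its family in CEY1 and CEY4, at 0.75 ± 0.06 (CEY1), 2.27 ± 0.07 (CEY2) and 1.08 ± 0.06 (CEY4). imb-2, the transportin gene, had 1.65 ± 0.06 (CEY1), 2.96 ± 0.06 (CEY2) and 1.61 ± 0.06 (CEY4), and imb-3, related to human importin 5, had 2.22 ± 0.06 (CEY1), 2.25 ± 0.06 (CEY2) and 1.67 ± 0.05 (CEY4). xpo-1 (WBGene00002078), the main exportin for proteins with a nuclear export signal (CRM1), had 942 and 962 CPM in the CEY1 FLAG libraries, against 301 and 282 CPM in the CEY1 MYC libraries. With CEY2 the levels were 915 and 984 CPM in the CEY2 FLAG libraries, against 166 and 179 CPM in the CEY2 MYC libraries. With CEY4 the levels were 1161 and 1176 CPM in the CEY4 FLAG libraries, against 319 and 314 CPM in the CEY4 MYC libraries. Its fold changes were 1.71 ± 0.06 (CEY1), 2.46 ± 0.06 (CEY2) and 1.89 ± 0.06 (CEY4). xpo-2 (WBGene00002079), the CAS gene, whose protein returns importin alpha to the cytoplasm, had 513 and 508 CPM in the CEY1 FLAG libraries, against 189 and 176 CPM in the CEY1 MYC libraries. In the CEY2 strain the levels were 1282 and 1282 CPM in the CEY2 FLAG libraries, against 130.2 and 129.9 CPM in the CEY2 MYC libraries. In the CEY4 strain it had 545 and 551 CPM in the CEY4 FLAG libraries, against 209 and 198 CPM in the CEY4 MYC libraries. The CEY2 FLAG libraries stood above all the other FLAG libraries, with fold changes of 1.49 ± 0.06 (CEY1), 3.30 ± 0.06 (CEY2) and 1.43 ± 0.05 (CEY4). xpo-3 (WBGene00002080), the exportin for tRNA, had 486 and 466 CPM in the CEY1 FLAG libraries, against 96.1 and 93.2 CPM in the CEY1 MYC libraries. The CEY2 levels were 347 and 368 CPM in the CEY2 FLAG libraries, against 48.7 and 43.8 CPM in the CEY2 MYC libraries. The CEY4 levels were 365 and 363 CPM in the CEY4 FLAG libraries, against 97.1 and 82.9 CPM in the CEY4 MYC libraries. Its fold changes were 2.33 ± 0.07 (CEY1), 2.95 ± 0.08 (CEY2) and 2.01 ± 0.07 (CEY4). With total-count scaling imb-1 turned negative with CEY1 and CEY4, xpo-2 stood at −0.003 with CEY1, and xpo-2 was no longer called with CEY4 (0.014).

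The 5 genes of the Ran system had median log2 fold changes of 0.54 (CEY1), 1.54 (CEY2) and 0.56 (CEY4), below those of the importin alpha, importin beta, exportin and mRNA export groups. ran-1, which encodes the GTPase Ran, had 0.77 ± 0.06 (CEY1), 1.64 ± 0.06 (CEY2) and 0.31 ± 0.06 (CEY4). ran-2, the gene of its GTPase-activating protein, had 0.54 ± 0.06 (CEY1), 1.48 ± 0.06 (CEY2) and 0.56 ± 0.06 (CEY4), and ran-3, the gene of its chromatin-bound exchange factor RCC1, had 0.13 ± 0.06 (CEY1), 1.54 ± 0.06 (CEY2) and 0.75 ± 0.05 (CEY4). The ran-3 value with CEY1 missed the threshold in a fit on the CEY1 libraries alone (0.015) and when 1 of 6 libraries was left out: CEY1 FLAG replicate 1 (0.11) or 2 (0.16), CEY1 MYC replicate 2 (0.12), CEY2 FLAG replicate 2 (0.13), or CEY4 FLAG replicate 1 or 2 (0.14 each). ran-4 (WBGene00004305), which encodes the Ran importer NTF2, had 20 to 201 counts per library. It had 5.36 and 6.01 CPM in the CEY2 FLAG libraries, against 4.87 and 2.80 CPM in the CEY2 MYC libraries. It had 5.21 and 5.51 CPM in the CEY4 FLAG libraries, against 10.4 and 5.74 CPM in the CEY4 MYC libraries, where 1 control stood well above the other. Its fold changes were 0.22 ± 0.21 (CEY1, adjusted p = 0.376), 0.56 ± 0.27 (CEY2, adjusted p = 0.0662) and −0.60 ± 0.21 (CEY4). Without CEY4 MYC replicate 1 the CEY4 value was −0.092 and without CEY4 FLAG replicate 1 it was −0.56, neither of them called. The CEY2 value passed the threshold with the replicate number as a block (0.58) and when 1 of 5 MYC libraries was left out (from 0.58 to 1.05), which were CEY1 replicates 1 and 2, CEY2 replicate 1 and CEY4 replicates 1 and 2. ran-5, a Ran-binding protein gene, had the largest values, 1.47 ± 0.07 (CEY1), 2.08 ± 0.08 (CEY2) and 1.57 ± 0.07 (CEY4). With total-count scaling ran-1, ran-2 and ran-3 turned negative in all 3 strains, ran-4 with CEY1 and CEY2, and ran-5 with CEY1. With the 1 CPM filter ran-3 with CEY1 (−0.47) and ran-1 with CEY4 (−0.30) were called lower. Under that filter ran-2 turned negative with CEY1 (−0.063) and CEY4 (−0.044) and was not called.

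For the mRNA export receptor, nxf-1 (WBGene00003834) encodes the large subunit, and nxf-2 is a paralog. nxf-1 had 227 and 202 CPM in the CEY1 FLAG libraries, against 97.6 and 98.3 CPM in the CEY1 MYC libraries. The CEY2 strain gave 273 and 290.4 CPM in the CEY2 FLAG libraries, against 61.5 and 66.7 CPM in the CEY2 MYC libraries. The CEY4 strain gave 281 and 292 CPM in the CEY4 FLAG libraries, against 107 and 98.4 CPM in the CEY4 MYC libraries. Its fold changes were 1.13 ± 0.07 (CEY1), 2.14 ± 0.07 (CEY2) and 1.48 ± 0.06 (CEY4). nxf-2 (WBGene00003835) had 33.3 and 29.4 CPM in the CEY1 FLAG libraries, against 17.5 and 16.6 CPM in the CEY1 MYC libraries. Its CEY2 levels were 27.6 and 33.2 CPM in the CEY2 FLAG libraries, against 8.16 and 9.24 CPM in the CEY2 MYC libraries. Its CEY4 levels were 33.1 and 33.1 CPM in the CEY4 FLAG libraries, against 16.7 and 17.7 CPM in the CEY4 MYC libraries. The fold changes were 0.89 ± 0.13 (CEY1), 1.81 ± 0.15 (CEY2) and 0.95 ± 0.11 (CEY4), and every FLAG library of both genes was above every MYC library. nxt-1 (WBGene00003836), which encodes the small subunit, differed from both. It had 5.68 and 6.03 CPM in the CEY1 FLAG libraries, against 9.08 and 8.63 CPM in the CEY1 MYC libraries, 17.4 and 18.7 CPM in the CEY2 FLAG libraries, against 7.24 and 5.18 CPM in the CEY2 MYC libraries, and 7.26 and 7.55 CPM in the CEY4 FLAG libraries, against 9.70 and 8.55 CPM in the CEY4 MYC libraries. In the CEY2 strain its FLAG libraries were the higher ones and in the other strains the lower ones, with fold changes of −0.59 ± 0.19 (CEY1), 1.53 ± 0.18 (CEY2) and −0.30 ± 0.16 (CEY4, adjusted p = 0.0825), and the CEY2 value turned negative with total-count scaling. The nxt-1 value with CEY4 was called lower with that scaling (−1.72) and with the 1 CPM filter (−0.91). Under total-count scaling the nxf values with CEY1 and the nxf-2 value with CEY4 also turned negative, and nxf-1 with CEY4 (0.064) and nxf-2 with CEY2 (0.082) were no longer called.

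**Figure D3:**
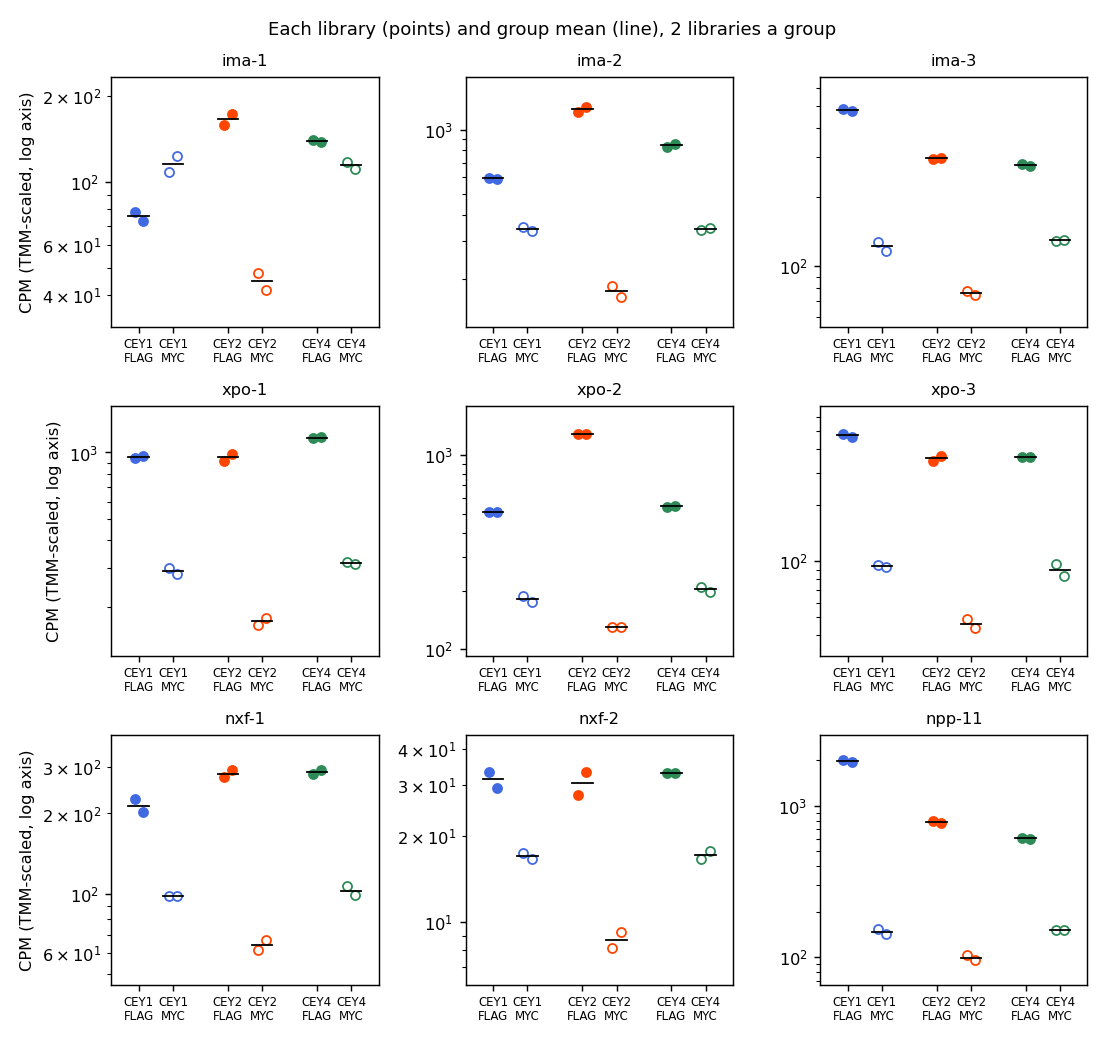
TMM-scaled CPM (log axis) of 9 genes in each of the 12 libraries, with FLAG libraries filled, MYC libraries open and lines at the means of 2 libraries. CEY2 MYC libraries are the lowest controls for each gene, and ima-1 is the gene whose CEY1 FLAG libraries lie below their controls (78.3 and 72.8 CPM in FLAG against 108 and 123 CPM in MYC libraries).

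The strains differed in how strongly these mRNAs were enriched. With TMM scaling, much of the difference between CEY2 and the others lay in the MYC controls. TMM factors were 2.11 and 2.13 for the CEY2 MYC libraries and 1.51 to 1.58 for the MYC libraries of CEY1 and CEY4. This split between FLAG and MYC libraries depends on those factors and was not made with total counts. CEY1 enrichment was lower than CEY2 enrichment for 34 of 43 genes and higher for 4 (npp-26, npp-25, npp-11 and npp-22), by edgeR's test of the difference of the log2 fold changes, against 31.4% and 18.4% of all genes. With total-count scaling or DESeq2 7 were called higher, and with median-of-ratios factors 8. The median difference was −0.92, and −0.23 over all genes. Between the MYC libraries alone, 40 of the 43 genes were higher in CEY1 than in CEY2 and 1 was lower, against 39.7% and 14.8% of all genes (median 0.75, all genes 0.33). Between the FLAG libraries alone, 13 were higher in CEY1 and 22 lower, against 29.9% and 31.2% of all genes (median −0.14, all genes −0.053). The summed level of the 43 genes was 30640.0 to 31746 CPM in CEY1, 31607 to 32004 in CEY2 and 31330.0 to 31562 in CEY4 FLAG libraries, against 8315 to 8735, 4996 to 5141 and 9223 to 9284 CPM in their MYC libraries. With TMM scaling, the germline, sperm and muscle marker sums given above were also lowest in the CEY2 MYC libraries among the controls. The muscle sums differed between CEY2 and the other controls by a smaller ratio than the TMM factors did, so their order rests on the scaling. The germline sums of the CEY1 and CEY2 controls differed by nearly the same ratio as the factors. Their distance therefore rests largely on the scaling. The neuron marker sum was highest in the CEY2 MYC libraries (119.6 to 121 CPM in CEY2, against 82.95 to 93.0 in CEY1 and 80.5 to 83.5 in CEY4 MYC libraries). The hypodermis and cuticle sum was lowest in CEY2 MYC libraries (681 to 717 CPM, against 909.5 to 968 in CEY1 and 834 to 919.9 in CEY4). That order too rests on the scaling. By gene, 4 of the 5 hypodermis and cuticle genes were lower in CEY1 than in CEY2 MYC libraries. The intestine and pharynx sums were not lowest in CEY2 MYC libraries. Of the 10 germline and oocyte genes, 9 had lower and 1 higher enrichment with CEY1 than with CEY2 (median −1.165). Of the 5 body wall muscle genes, 0 were lower and 5 higher (median 2.01). The part of these markers in the differences was not tested.

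At the low end of the CEY1 to CEY2 difference, ima-1, npp-2 and npp-20 also differed between the FLAG libraries themselves. ima-1 had the lowest difference of enrichment (−2.51 ± 0.11), made up of −1.13 ± 0.07 between the FLAG libraries and 1.37 ± 0.09 between the MYC libraries. npp-2 followed (−2.30 ± 0.10, −0.97 ± 0.07 between the FLAG libraries and 1.33 ± 0.08 between the MYC libraries), then npp-20 (−2.16 ± 0.17, −1.56 ± 0.10 between the FLAG libraries and 0.60 ± 0.13 between the MYC libraries). At the other end stood npp-26 (2.20 ± 0.70), which was not called between the FLAG libraries (0.42 ± 0.41, adjusted p = 0.393), rests on the few counts given above and missed the threshold without CEY2 MYC replicate 1 (1.54). For npp-25 the difference was 1.09 ± 0.30, or 0.81 and not called without CEY2 MYC replicate 2. For npp-11 it was 0.78 ± 0.08, with 1.34 ± 0.05 between the FLAG libraries and 0.56 ± 0.07 between the MYC libraries, and for npp-22 0.38 ± 0.10. Within the importin alphas, the difference was −2.04 ± 0.08 for ima-2 and 0.030 ± 0.09 (adjusted p = 0.83) for ima-3, whose interval of ± 1 SE includes 0. With total-count scaling (which adds 0.24 to the median of all genes) the ima-3 difference was 0.27 and was called, as it was with median-of-ratios factors (0.37), DESeq2 (0.37) and the 1 CPM filter (0.51). Exportin differences were −0.75 ± 0.08 (xpo-1), −1.81 ± 0.08 (xpo-2) and −0.62 ± 0.11 (xpo-3, not called with the 1 CPM filter, −0.14), those of nxf-1 and nxf-2 −1.01 ± 0.10 and −0.92 ± 0.20, and that of nxt-1 −2.13 ± 0.26.

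CEY2 enrichment was higher than CEY4 enrichment for 41 of 43 genes and lower for 0, against 32.3% and 14.7% of all genes (by edgeR; 1 lower at an unadjusted p under 0.05, 1 by DESeq2; median 0.97, all genes 0.29). This comparison shares the CEY2 libraries with the one above. In the MYC libraries 0 of the 43 genes were higher in CEY2 than in CEY4 and 41 lower, against 15.4% and 42.4% of all genes (0 higher at an unadjusted p under 0.05), with a median of −0.86. In the FLAG libraries 18 were higher and 8 lower, against 27.6% and 27.3% of all genes, with a median of 0.089. The largest differences of enrichment were those of xpo-2 (1.87 ± 0.08, with 1.23 ± 0.05 between the FLAG libraries and −0.65 ± 0.06 between the MYC libraries), nxt-1 (1.84 ± 0.24, with 1.29 ± 0.14 between the FLAG libraries and −0.55 ± 0.19 between the MYC libraries) and npp-18 (1.67 ± 0.11, with 0.91 ± 0.07 between the FLAG libraries and −0.76 ± 0.09 between the MYC libraries). The smallest were those of npp-26 (−1.35 ± 0.59, adjusted p = 0.0604), npp-24 (−0.049 ± 0.12, adjusted p = 0.779) and npp-22 (0.31 ± 0.10). npp-24 was called lower (−0.36) and npp-22 was no longer called (−0.005) with total-count scaling (all-gene shift −0.32). npp-22 also missed the threshold without CEY2 MYC replicate 2 (0.25) or CEY4 FLAG replicate 1 (0.28), and npp-26 passed it, as lower, without CEY2 MYC replicate 2 (−1.77) or CEY4 MYC replicate 2 (−1.60). The importin alpha differences were 1.60 ± 0.11 (ima-1), 1.53 ± 0.08 (ima-2) and 0.87 ± 0.09 (ima-3).

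CEY1 and CEY4, whose controls were closer to each other, gave a mixed picture. CEY1 enrichment was higher for 12 genes and lower for 14, against 18.1% and 18.6% of all genes (median −0.026, all genes −0.004). In the MYC libraries 0 of the 43 genes were higher in CEY1 than in CEY4 and 7 lower, against 6.19% and 8.35% of all genes (2 higher at an unadjusted p under 0.05), and in the FLAG libraries 11 and 19, against 23.6% and 25.4%. The 2 largest and 2 smallest differences, chosen after their values were seen, were those of npp-25 (2.50 ± 0.24), npp-11 (1.75 ± 0.08), npp-2 (−0.998 ± 0.09) and npp-27 (−1.16 ± 0.15). npp-7, the Nup153 gene, also chosen after its values were seen, had the largest called control difference (−0.78 ± 0.06), with 386 and 404 CPM in CEY1 and 642 and 714 CPM in CEY4 MYC libraries, while its FLAG levels were 1959 and 1859 CPM in CEY1 and 1982 and 2015 CPM in CEY4 libraries. The 4 inner ring genes had values from −0.011 (npp-8) to 0.20 (npp-3) and were not called. npp-3 was called without a filter (0.18), with the 1 CPM filter (0.21), without CEY1 MYC replicate 1 (0.36) and with the replicate number as a block (0.20).

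**Figure D4:**
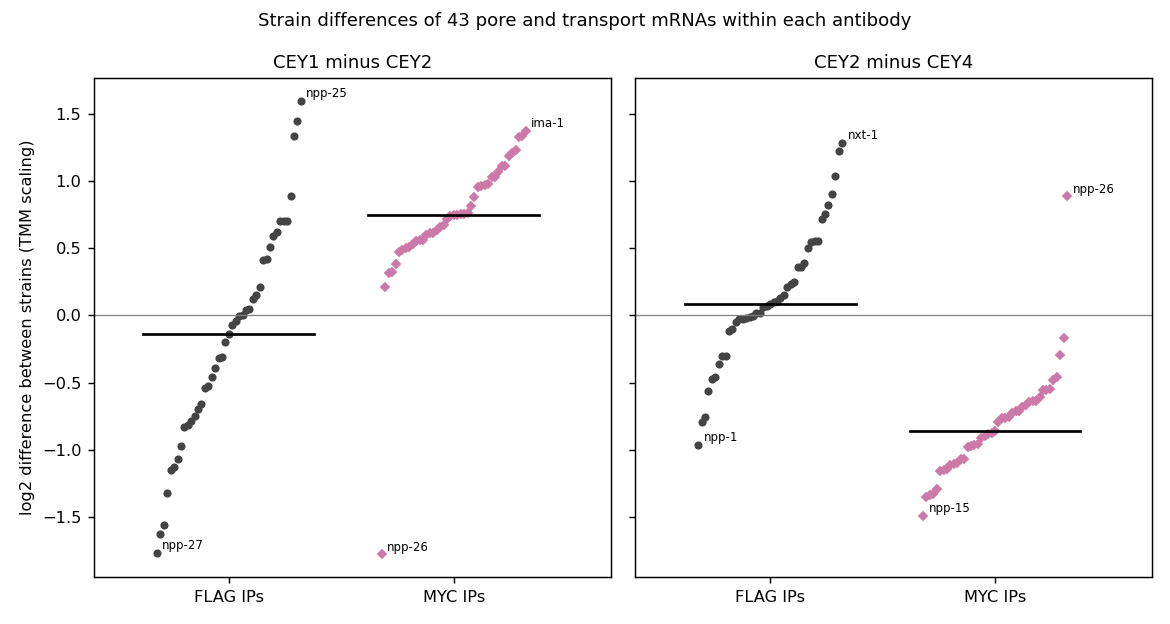
Log2 difference between strains for each of the 43 genes, sorted within the FLAG IPs (dots) and the MYC IPs (diamonds), for CEY1 minus CEY2 and CEY2 minus CEY4, with lines at the medians. With TMM scaling, on which this split depends, the FLAG medians lie near 0 (−0.14 and 0.089) and the MYC medians at 0.75 and −0.86.

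Related genes with other symbols were read for comparison from textbook lists. Only counts and medians of these lists were planned. The single genes named below were picked beyond that plan and include extremes of their lists. Of 13 further pore and mRNA export genes, 10 were higher and 2 lower with CEY1 (median 0.78), 13 were higher and 0 lower with CEY2 (median 1.71) and 8 were higher and 1 lower with CEY4 (median 0.44). They include mel-28, the Y-complex anchor on chromatin known as ELYS, at 2.79, 3.56 and 2.94 with CEY1, CEY2 and CEY4, and rae-1, an mRNA export factor of the pore, at 0.18, 1.71 and 0.27. Among them the THO complex gene thoc-3 had −1.35, 0.95 and −0.068 (adjusted p = 0.534) by edgeR. Of 17 lamina and envelope genes, 14 were higher and 1 lower with CEY1 (median 1.36), 17 were higher and 0 lower with CEY2 (median 2.05) and 15 were higher and 1 lower with CEY4 (median 1.68). The lamin gene lmn-1 had 2.66, 1.72 and 2.04, and baf-1, which encodes a small chromatin-bridging protein of the envelope, had −2.36, 0.52 and −2.06. Of 8 genes of the SUMO cycle, which modifies RanGAP and other pore-associated proteins in vertebrates, 7 were higher and 0 lower with CEY1 (median 1.04), 8 were higher and 0 lower with CEY2 (median 2.08) and 7 were higher and 1 lower with CEY4 (median 0.64). These medians are TMM values, to be read against the medians of all genes given above, and the counts against the 32.3% higher and 34.4% lower of all genes with CEY1, 34.9% and 34.1% with CEY2, and 31.5% and 37% with CEY4.

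Across the 43 genes the enrichments of different strains went together to a similar degree as over all genes. Pearson's r was 0.549 between CEY1 and CEY2, 0.762 between CEY1 and CEY4, and 0.775 between CEY2 and CEY4, and over the 15194 genes it was 0.58, 0.709 and 0.685. These are descriptions across genes, which are not replicates and which share transcript length, base composition and the library kit between strains. In the WBcel235 annotation 2 pairs of the 43 genes are neighbours among protein-coding genes, and how reads near their borders were assigned is not given in the sources used here. The pairs are npp-15 with ran-2, and imb-3 with xpo-2. For imb-3 and xpo-2 the fold changes differed, with 2.22 and 1.49 with CEY1 and 2.25 and 3.30 with CEY2.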

How the data were processed

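Per the labels' protocols, beads from FLAG and MYC IPs were treated with Trizol and the libraries were prepared by the ScriptSeq v2 method. The authors deposited raw counts per gene for 12 libraries. Aligner, build and annotation are not given in the sources read here. The authors also deposited log2 values, which equal the log2 of counts scaled to 1 common total plus 8 within 5e-05 and were not tested. Symbols were matched by identifier for 18778 of 20182 genes (93.0%).

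The deposited counts were analysed with edgeR 4.0.16 in R 4.3.3. filterByExpr by group (minimum count 10) left 15194 genes. TMM factors (trimmed means of log ratios) were 0.548 to 0.64 for FLAG and 1.51 to 2.13 for MYC libraries. The model had 1 mean for each group, over all libraries. Quasi-likelihood F tests were two-sided, adjusted by Benjamini-Hochberg over all tested genes and called under 0.05, with the SE derived from the F statistic. Library totals speak for counting error only, since PCR copies cannot be recognised. Alternatives were median-of-ratios scaling, total-count scaling, no filter, a filter of 1 CPM in every library, DESeq2 1.42.0, a replicate block, fits on the compared strains only, leaving out each library, and, chosen after the data were seen, the mean of the 3 MYC groups as control. Named genes were all members, with levels per library for the 3 highest and 3 lowest enrichments per strain, the extreme differences between CEY1 and CEY2 and between CEY2 and CEY4, and the ima, xpo and nxf families. The members and lists were chosen with earlier results of these data known.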

Additional observations from a re-analysis of the deposited data

Results flagged for a closer look

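The values below are differences of log2 enrichment between strains that edgeR's test of the difference called, for the genes named by rule; all comparisons share libraries with each other. Between CEY1 and CEY2 they are those of npp-26 (2.20 ± 0.70), npp-25 (1.09 ± 0.30), npp-11 (0.78 ± 0.08), npp-22 (0.38 ± 0.10), xpo-3 (−0.62 ± 0.11), xpo-1 (−0.75 ± 0.08), nxf-2 (−0.92 ± 0.20), nxf-1 (−1.01 ± 0.10), npp-18 (−1.18 ± 0.12), xpo-2 (−1.81 ± 0.08), ima-2 (−2.04 ± 0.08), nxt-1 (−2.13 ± 0.26), npp-20 (−2.16 ± 0.17), npp-2 (−2.30 ± 0.10) and ima-1 (−2.51 ± 0.11). Between CEY2 and CEY4 they are those of xpo-2 (1.87 ± 0.08), nxt-1 (1.84 ± 0.24), npp-18 (1.67 ± 0.11), ima-1 (1.60 ± 0.11), ima-2 (1.53 ± 0.08), npp-25 (1.41 ± 0.27), npp-2 (1.30 ± 0.10), npp-20 (1.30 ± 0.15), npp-11 (0.97 ± 0.08), xpo-3 (0.93 ± 0.10), ima-3 (0.87 ± 0.09), nxf-2 (0.86 ± 0.19), nxf-1 (0.66 ± 0.10), xpo-1 (0.57 ± 0.08) and npp-22 (0.31 ± 0.10). Between CEY1 and CEY4 the extremes are npp-25 (2.50 ± 0.24), npp-11 (1.75 ± 0.08), npp-2 (−1.0 ± 0.09) and npp-27 (−1.16 ± 0.15). ima-1 and ima-2 were lower with CEY1 than with CEY2 and higher with CEY2 than with CEY4, while the ima-3 difference between CEY1 and CEY2 was 0.030 ± 0.09 (adjusted p = 0.83) by edgeR. With 1 CPM required in every library, xpo-3 between CEY1 and CEY2 (−0.14) and nxf-2 (0.39), nxf-1 (0.18) and xpo-1 (0.095) between CEY2 and CEY4 were not called, and DESeq2 did not call nxf-2 between CEY2 and CEY4 (0.53).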

How the results depend on the processing

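The scaling of the libraries had the largest effect. With total-count scaling 17 of the 43 genes were higher and 21 lower with CEY1, 26 and 9 with CEY2, and 16 and 23 with CEY4, where 71.4%, 71.7% and 79.7% of all genes were lower, while 7 were higher in the CEY1 to CEY2 difference and 2 lower in the CEY2 to CEY4 difference. Values that changed sign under it were, with CEY1, npp-23 −0.95, nxf-1 −0.36, nxf-2 −0.60, ran-3 −1.36, ran-2 −0.95, npp-15 −0.99, ima-2 −0.70, imb-1 −0.74, npp-6 −0.13, ran-1 −0.72, npp-1 −0.79, ran-4 −1.27, ran-5 −0.023, npp-12 −0.16, npp-26 −0.17, npp-18 −1.07, xpo-2 −0.003, npp-16 −0.93, npp-24 −0.16; with CEY2, npp-22 −0.19, ran-3 −0.19, ran-2 −0.26, npp-27 −0.045, ran-1 −0.094, npp-1 −0.53, ran-4 −1.17, npp-2 −0.084, npp-25 −0.14, npp-13 −0.34, npp-18 −0.13, nxt-1 −0.19, npp-20 −0.35, npp-24 −0.34; with CEY4, npp-22 −0.19, npp-23 −0.86, nxf-2 −0.47, ran-3 −0.66, ran-2 −0.85, npp-15 −0.64, npp-27 −0.72, ima-2 −0.12, imb-1 −0.33, ima-3 −0.32, ran-1 −1.11, npp-1 −0.59, npp-2 −1.07, ima-1 −1.13, npp-26 −0.95, npp-25 −1.24, npp-4 −0.23, npp-16 −0.34, npp-20 −1.33. In the differences of enrichment they were npp-14 0.20, imb-3 0.22 (CEY1 to CEY2) and npp-22 −0.005 (CEY2 to CEY4). With 1 CPM required in every library, which dropped npp-26, 28 genes were higher and 8 lower with CEY1, 40 and 0 with CEY2, 30 and 9 with CEY4, 7 and 29 in the CEY1 to CEY2 difference and 30 and 1 in the CEY2 to CEY4 difference. Sign changes were npp-23 −0.061, ran-3 −0.47, ran-2 −0.063, npp-15 −0.10, npp-18 −0.18, npp-16 −0.040 (CEY1), npp-23 −0.054, ran-2 −0.044, ran-1 −0.30, npp-2 −0.26, ima-1 −0.32, npp-25 −0.43, npp-20 −0.52 (CEY4), npp-14 0.44, imb-3 0.46, npp-4 0.068, npp-24 0.43 (CEY1 to CEY2) and npp-22 −0.17, npp-14 −0.069, npp-1 −0.11 (CEY2 to CEY4). With median-of-ratios size factors 1 gene was lower with CEY2, 8 were higher in the CEY1 to CEY2 and 2 lower in the CEY2 to CEY4 difference, with sign changes for npp-14 0.29, imb-3 0.31, npp-24 0.29 and npp-22 −0.023. The DESeq2 test gave 1 lower with CEY2, 0 with CEY4, 7 higher and 1 lower in those differences, with sign changes for npp-14 0.29, imb-3 0.31 and npp-22 −0.023. A fit on the CEY2 libraries alone gave 1 gene lower. With the mean of the 3 MYC groups as control, an alternative added after the data were seen, 37, 41 and 40 genes were higher with CEY1, CEY2 and CEY4 and 0 lower with CEY4, and npp-13 became 0.15 with CEY1 and 0.29 with CEY4, and npp-18 0.20 with CEY4. The share of all genes called was computed for the main setting and total-count scaling only. Under the other alternatives, a change in the 43 genes cannot be told from a shift of all genes. The cause of these changes was not tested.

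Calls were lost without a change of sign in other cases. With total-count scaling these were npp-19 0.14 (CEY1), nxf-2 0.082, ima-1 0.16 (CEY2), nxf-1 0.064, npp-19 0.047, xpo-2 0.014, npp-24 0.020 (CEY4), npp-4 −0.18 (CEY1 to CEY2) and npp-14 0.095, npp-1 0.057, ran-5 0.19 (CEY2 to CEY4). With the 1 CPM filter these were npp-1 0.10 (CEY1), npp-1 0.11 (CEY2), npp-27 0.090 (CEY4), xpo-3 −0.14, npp-1 −0.011, npp-3 −0.11, ran-5 −0.12 (CEY1 to CEY2) and nxf-1 0.18, nxf-2 0.39, imb-3 0.094, npp-9 0.008, ran-4 0.68, npp-21 0.12, ran-5 0.023, xpo-1 0.095 (CEY2 to CEY4). With median-of-ratios factors these were npp-1 −0.16, npp-4 −0.078 (CEY1 to CEY2) and npp-14 0.076, npp-9 0.15, npp-1 0.038, ran-5 0.17 (CEY2 to CEY4). With DESeq2 these were npp-26 1.32 (CEY1), ran-4 −0.60 (CEY4), npp-1 −0.15, ran-5 −0.28, npp-4 −0.079 (CEY1 to CEY2), ran-4 0.81 (CEY1 to CEY4) and npp-14 0.076, nxf-2 0.53, npp-1 0.039, ran-4 0.83, ran-5 0.17 (CEY2 to CEY4). With the compared strains only these were ran-3 0.015 (CEY1) and npp-9 −0.14 (CEY1 to CEY4). With the mean of the MYC groups as control these were npp-26 0.41 (CEY1) and ran-4 −0.30 (CEY4). Calls were gained as well. With total-count scaling these were npp-13 −1.54 (CEY1), npp-26 −2.61 (CEY2), npp-13 −1.48, npp-18 −1.48, nxt-1 −1.72 (CEY4), ima-3 0.27 (CEY1 to CEY2), npp-10 −0.20, xpo-1 −0.25 (CEY1 to CEY4) and npp-26 −1.66, npp-24 −0.36 (CEY2 to CEY4). With the 1 CPM filter these were npp-13 −0.65 (CEY1), npp-13 −0.67, npp-18 −0.67, nxt-1 −0.91 (CEY4), ima-3 0.51 (CEY1 to CEY2), npp-3 0.21, xpo-1 −0.17 (CEY1 to CEY4) and npp-24 −0.53 (CEY2 to CEY4). With median-of-ratios factors these were npp-26 −1.23 (CEY2), ima-3 0.37 (CEY1 to CEY2) and npp-26 −1.68, npp-24 −0.38 (CEY2 to CEY4). With DESeq2 these were npp-26 −1.23 (CEY2), ima-3 0.37 (CEY1 to CEY2) and npp-24 −0.38 (CEY2 to CEY4). Without a filter these were ran-4 0.65 (CEY2) and npp-3 0.18 (CEY1 to CEY4). With the compared strains only these were npp-13 −0.17 (CEY1) and npp-26 −1.05 (CEY2). With the mean of the MYC groups as control these were ran-4 0.68 (CEY1) and npp-25 0.58, npp-20 0.41 (CEY4).

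Leaving out 1 library at a time gave 34 to 36 genes higher and 5 lower with CEY1, 41 to 42 and 0 to 1 with CEY2, and 36 and 0 to 1 with CEY4. For the differences it gave 3 to 4 higher and 34 lower (CEY1 to CEY2), 10 to 13 and 13 to 16 (CEY1 to CEY4), and 38 to 41 and 0 to 1 (CEY2 to CEY4). Same-numbered libraries showed no shared deviation: over 15 pairs of groups their deviations correlated between −0.026 and 0.033 across genes, and 0 pairs exceeded 0.1. A pairing that left no such trace would look the same, so this cannot tell whether libraries were paired. With a replicate block 36 genes were higher and 5 lower with CEY1, 42 and 0 with CEY2, and 36 and 1 with CEY4. Low counts limit npp-26, ran-4, nxt-1 and npp-25.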
